A study of Mus musculus with 4 samples.

Results

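Transcripts of 10 genes that set the pace of the G1 phase, namely 3 D cyclins (*Ccnd1*, *Ccnd2*, and *Ccnd3*), 5 inhibitors of cyclin-dependent kinases (*Cdkn1a*, *Cdkn1b*, *Cdkn2a*, *Cdkn2b*, and *Cdkn2c*), *Trp53*, and *Mdm2*, were examined in single cells of 4 neural stem cell (NSC) lines. The genes were chosen by name, with earlier results of these data known, and all 10 were found among the 12390 genes listed for all 4 lines. The NSC lines were derived from epiblast stem cells (EpiSCs) of 129/Sv mice, which represent the epiblast just before neural development, and all were grown with the growth factors EGF and FGF2, each at 10 ng/ml. XN4 and XN1 also received 10 µM XAV939, an inhibitor of Wnt signaling, but from different suppliers, and the study notes crystals forming in medium with the XAV939 used for XN1. KN1 received neither Wnt drug, and CN4 received 2 µM CHIR99021, a Wnt agonist. XN1 and KN1 came from one derivation experiment and XN4 and CN4 from another. Cells in the growing phase were stored in a preservative and captured on barcoded beads, and 1 library was sequenced per line.

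Each line was thus 1 established culture and 1 library, so no test between lines was possible, and a difference between lines cannot be told apart from a difference between libraries. For all 4 lines, log values of 3448 to 3975 cells were turned back into reads, which summed to 19271688 to 41539513 per line. The tables of all reads, which exist here for XN4, XN1, and CN4, held 8741 to 18157 cells. These are reads and not molecules, so the intervals given below are 95% intervals that cover counting error only and are too narrow where 1 molecule was read many times. The libraries differed in this respect. The mean number of reads of a gene per cell that captured it had a median over genes of 5.43 in KN1, 2.22 in XN4, 1.45 in CN4, and 1.31 in XN1. Genes captured in at least 1% of cells were used for this. After thinning each cell to 3200 reads, the median number of genes per cell was 764 in KN1 and 1650 to 1845 in the other lines. Between 37 and 320 cell indices were shared by each pair of lines, out of 3975 to 18157 cells per line.

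The lines were set against 10 neural progenitor genes and 10 connective tissue genes. All 10 neural progenitor genes were listed in CN4 and KN1, 9 in XN1 (without *Sox1*), and 7 in XN4 (without *Sox1*, *Sox3*, and *Fabp7*). *Sox2*, which maintains neural progenitors, was captured in 83.9% of CN4, 62.2% of XN1, 13.9% of KN1, and 0.560% of XN4 cells. The connective tissue genes summed to 8884 RPM (reads scaled to a common total per line) in XN4, with all 10 captured in more than 5% of cells, and to 19.8 to 221 in the other lines. Of the 10 neural progenitor genes, 5 were captured in more than 5% of XN4 cells, and 9 to 10 in the other lines. Of the 7 that could be compared, 4 were under 1 in 2 of any other line in XN4, as were 7.31% of all genes. Others were not, such as *Zeb2* (247 RPM in XN4, 107 to 292 elsewhere) and *Sox9* (169 in XN4, 171 to 526 elsewhere). XN4 values below therefore belong to cells that largely lacked *Sox2* and had reads of *Col3a1*, a fibrillar collagen gene, in 97.8% of cells. By *Sox2* and the connective tissue genes, though not by every neural progenitor gene, the library labelled XN4 went against its label of a neural stem cell line. Whether it holds the line its label names was not tested, so every XN4 value below is that of the library labelled XN4. In KN1, all 4 neuron genes that could be compared were over 2 times higher than in any other line, as were 11.5% of all genes. The 8 neuron genes summed to 1727 RPM there, of which *Map2* made up 1588, and to 17.1 to 783 in the other lines, and 2 of the 8 were captured in more than 5% of cells in each of KN1, XN1, and CN4. Those of the 8 that could not be compared were together lower in KN1 than in XN1 and CN4. The part of these differences in the values of the 10 genes was not tested.

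D cyclins bind the kinases Cdk4 and Cdk6 in response to growth factors such as EGF and FGF2, and the complexes phosphorylate the retinoblastoma protein, which frees E2F factors to start S phase. The INK4 inhibitors (p16 from *Cdkn2a*, p15 from *Cdkn2b*, and p18 from *Cdkn2c*) block Cdk4 and Cdk6, while the Cip/Kip inhibitors p21 (*Cdkn1a*) and p27 (*Cdkn1b*) bind a wider range of cyclin and kinase complexes. *Cdkn2a* also encodes p19Arf from another first exon. p19Arf holds back Mdm2, the ubiquitin ligase that degrades p53, and p53 in turn activates *Cdkn1a* and *Mdm2*. In the embryonic neural tube, *Ccnd1* and *Ccnd2* are the D cyclins known for dividing progenitors, and the *Cdkn2a* locus is known for rising when cultured neural progenitors age.

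Because p53 acts on *Cdkn1a* and *Mdm2*, and E2F factors and the CHR element on genes of the cell cycle, the sequences before the starts of the 10 genes were searched for these motifs. RefSeq windows (GRCm38.p6) were at hand for 8 of the 10 genes (not for *Ccnd1* and *Ccnd2*), and the 250 bases before each start were read on both strands. The p53 response element was searched as a pair of half-sites with up to 13 bases between them. It was held by 0.0639% of 32851 windows and by 1 of the 8 genes, *Cdkn1a*, and a single half-site by 7.13% of windows and by 3 of the 8, *Cdkn1a*, *Mdm2*, and *Trp53*. For *Cdkn1a* these matches lay before the start farther upstream, and no match lay before its other start. The E2F site, searched as TTTCCCGC, TTTCGCGC, TTTGCCGC, and TTTGGCGC, was held by 1.86% of windows and by *Cdkn2a*, at the start farther upstream, and the CHR element of cell cycle genes, searched as TTTGAA, by 16.0% of windows and by *Cdkn2b*. None of the E2F and CHR letters were found for *Cdkn2c* and *Cdkn1b*, which says only that these letters are not in this window. A match is a description and not a site in use, and of 18 p53 targets with a window 0 held the response element and 7 a half-site. The stretches of 120 bases with these matches are shown with the match in capitals, from chr17:29090859-29090978 (plus strand, p53 response element of *Cdkn1a* as searched), chr10:117710880-117710999 (minus strand, half-site of *Mdm2*), chr4:89294655-89294774 (minus strand, E2F site of *Cdkn2a*), and chr4:89311131-89311250 (minus strand, CHR element of *Cdkn2b*, on the other strand). For *Cdkn1a* the capitals also cover the bases between the pair of half-sites, and half-sites with a mismatch were not searched.
Cdkn1a: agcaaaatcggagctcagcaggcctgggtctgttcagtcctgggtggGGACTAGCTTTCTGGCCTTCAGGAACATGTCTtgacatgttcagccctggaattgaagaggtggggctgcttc
Mdm2: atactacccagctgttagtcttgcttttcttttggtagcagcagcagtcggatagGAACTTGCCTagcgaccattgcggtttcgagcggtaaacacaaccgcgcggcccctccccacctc
Cdkn2a: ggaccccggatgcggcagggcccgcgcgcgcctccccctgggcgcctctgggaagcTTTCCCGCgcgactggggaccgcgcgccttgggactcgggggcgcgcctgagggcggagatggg
Cdkn2b: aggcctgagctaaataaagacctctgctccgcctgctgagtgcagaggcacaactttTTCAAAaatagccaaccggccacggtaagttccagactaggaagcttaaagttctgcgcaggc

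The 10 genes were not at the same levels in the 4 lines (levels are in RPM, the reads of a gene scaled to the same total of reads over the genes of each normalized table). A line was said to stand apart for a gene when its level was over 2 times the highest, or under 1 in 2 of the lowest, of the other 3. XN4 stood apart by a low *Ccnd2* level and a high *Ccnd3* level. XN1 stood apart by high levels of *Cdkn1a* and *Cdkn2a*. KN1 stood apart by low levels of *Cdkn1b*, *Cdkn2a*, *Cdkn2b*, *Cdkn2c*, and *Trp53*, and CN4 stood apart for 0 of the 10. Among all 11521 genes with a level of at least 5 RPM in a line, XN4 stood apart as higher for 5.88% and as lower for 7.31%. The same shares were 2.22% and 1.86% for XN1, 11.5% and 10.9% for KN1, and 1.14% and 1.19% for CN4. The median log2 difference of the 10 genes from the mean of the other lines was -1.46 for KN1, 0.15 for CN4, 0.63 for XN1, and 0.89 for XN4, and that of all genes lay between -0.06 and 0.06. The 5 of 10 genes that were low in KN1 are thus set against 10.9% of all genes. KN1 also had high levels of the neuron genes that could be compared, and the fewest genes per cell. When the tables of all reads were used for the 3 lines that have them, the 9 combinations of gene and line became 5. The 4 lost were *Cdkn1a* as high in XN1 (411.7 RPM, 1.67-fold above KN1) and *Cdkn1b*, *Cdkn2a*, and *Trp53* as low in KN1. Each of the 4 rests on a comparison with KN1, which kept its normalized table, without mitochondrial genes. The other lines were divided there by totals that include such reads, which lowers their levels beside KN1. These losses therefore do not show whether the 4 calls hold, and the part of the unlike totals was not tested. *Cdkn1a* did not stand apart in thinned capture either, while the other 3 did. KN1 stood apart as lower in thinned capture for 41.6% of 11577 genes, however, so this says little about the 3. With the mean of natural log values, in which cells without a read weigh as 0, 8 of the 9 were lost and *Ccnd2* as low in XN4 was left. *Cdkn2a* in XN1 over KN1 was then at 0.78 on the log2 scale. This measure compresses the folds of genes captured in few cells. The highest means of *Cdkn2a* (0.596, XN1), *Cdkn2c* (0.400, CN4), and *Cdkn2b* (0.104, XN1) were too low for any 2-fold difference. *Cdkn1b* and *Trp53*, at 0.595 and 0.486 in XN1, the line next to KN1, could not be 2-fold lower in KN1. The loss of these calls was thus fixed by the measure. The combinations were 8 with the library of XN4 left out and 5 with that of KN1 left out.

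**Figure D1:**
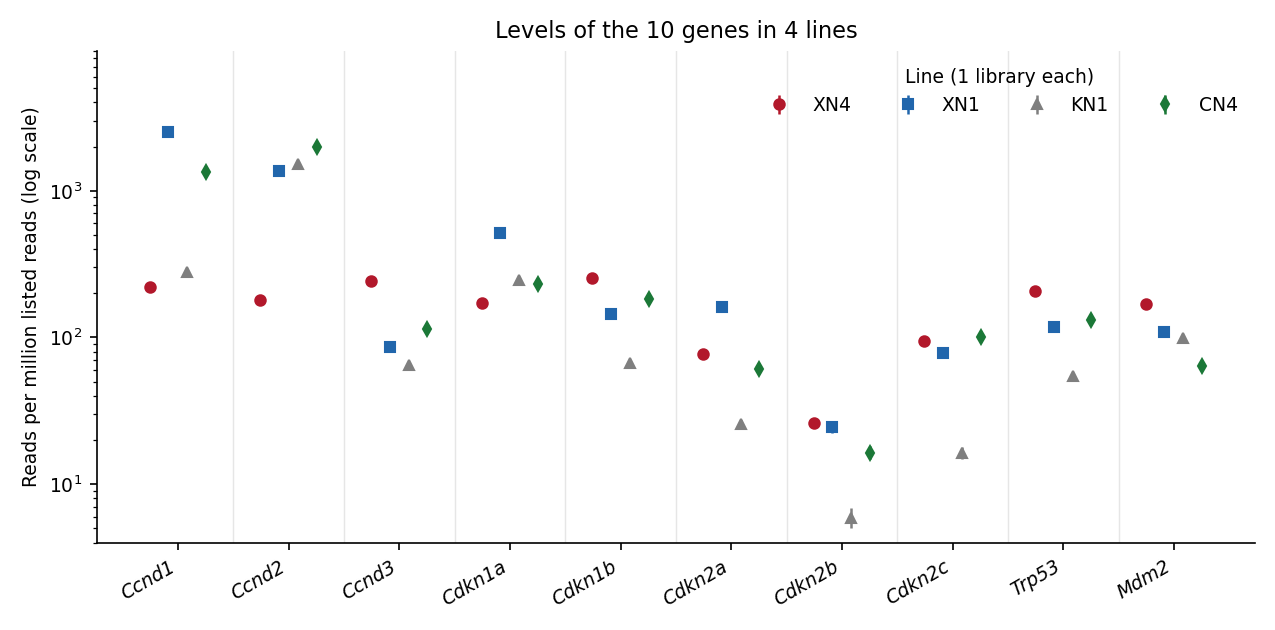
Levels of the 10 genes in RPM (log scale), with 1 point per line and library and bars for the exact Poisson 95% interval. Most intervals are smaller than the symbols; XN4 lies far below the other lines for Ccnd2, and KN1 lies lowest for 6 genes.

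Among the D cyclins, *Ccnd1* was at 2499 RPM in XN1 and 1344 in CN4, but at 279 in KN1 and 221 in XN4. XN1 and CN4 were high and XN4 and KN1 were low, with an 11.3-fold range between XN1 and XN4. The order was XN1, CN4, KN1, and XN4, and the counting intervals of neighbors did not overlap (for XN4, 216 to 225; for KN1, 273 to 286). XN1 and the library labelled XN4, both from medium with XAV939 by their labels, were thus at the ends of the order. In thinned cells, *Ccnd1* was captured in 95.6% of XN1 (94.8% to 96.3%), 72.3% of CN4 (70.7% to 73.8%), 23.1% of KN1 (21.7% to 24.6%), and 19.7% of XN4 (18.3% to 21.03%). *Ccnd1* lies on the minus strand of GRCm38 chromosome 7 (144929931 to 144939925), where its last exon is overlapped by a gene of the other strand.

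*Ccnd2* was high in every line but XN4. Its level was 1999 RPM in CN4, 1523 in KN1, 1367 in XN1, and 179.8 in XN4, so that XN4 was 7.60-fold below the next line. The thinned capture was 87.6% in CN4, 84.9% in XN1, 71.4% in KN1, and 13.8% in XN4. KN1 and XN4, which had like levels of *Ccnd1*, thus held very different levels of *Ccnd2*. *Ccnd2* lies on the minus strand of chromosome 6 (127125162 to 127152193) and overlaps 2 antisense genes, and reads of antisense partners could not be set apart here because the counting strand is not given in the sources used here.

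*Ccnd3* showed another order. It was at 244 RPM in XN4, 114 in CN4, 86.6 in XN1, and 65.3 in KN1. XN4, the lowest line for *Ccnd1* and *Ccnd2*, was the highest for *Ccnd3*, at 2.13 times the level of CN4. The thinned capture was 41.3% in XN4 (39.6% to 43.0%), 26.0% in CN4 (24.4% to 27.5%), 20.8% in XN1 (19.4% to 22.3%), and 6.04% in KN1 (5.26% to 6.89%). The end of *Ccnd3* (plus strand of chromosome 17, 47505051 to 47599691) overlaps *Bysl* on the other strand.

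How the D cyclins were combined in single cells also differed. Cells with both *Ccnd1* and *Ccnd2* made up 82.4% of thinned XN1 cells and 66.8% of CN4 cells, but 17.9% of KN1 and 6.12% of XN4 cells. In KN1, *Ccnd2* without *Ccnd1* was the most frequent state (53.5%), and *Ccnd1* without *Ccnd2* was found in 5.24%. In XN4, neither was captured in 72.7% of cells (71.2% to 74.2%). With *Ccnd3* added, at least 1 D cyclin was captured in 98.3% of XN1, 94.5% of CN4, 77.9% of KN1, and 56.2% of XN4 cells. A cell without a read of a gene may still have had its transcript, since capture falls with the number of molecules sampled.

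**Figure D2:**
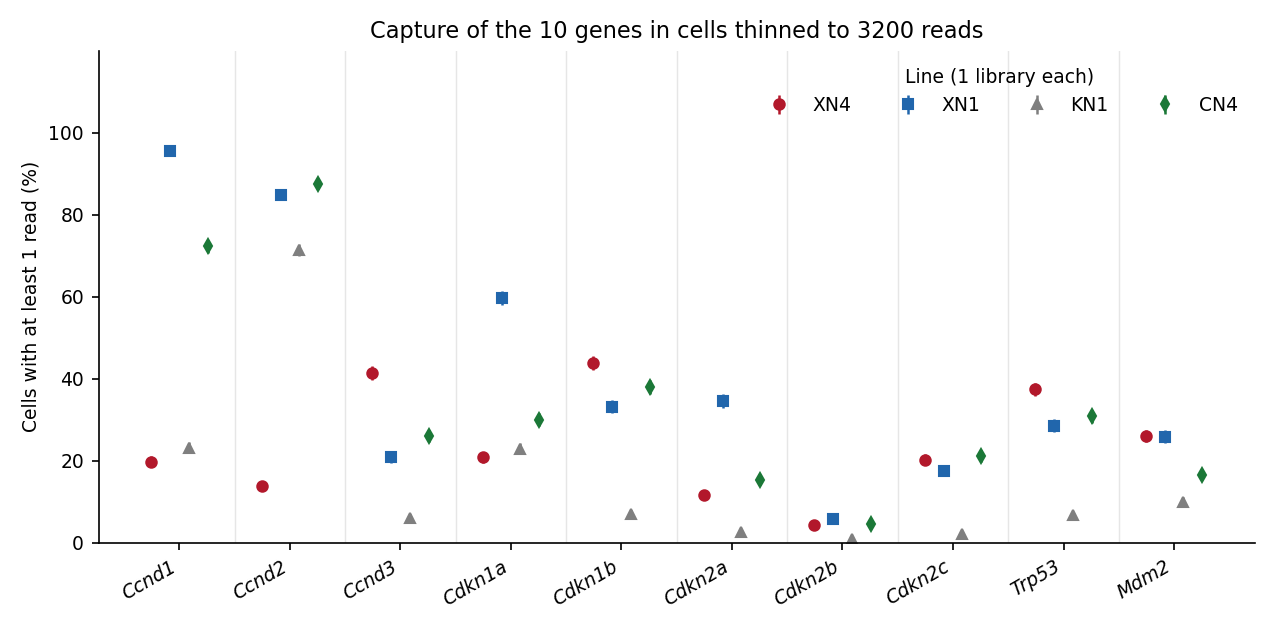
Share of cells with at least 1 read of each gene (%) after thinning to 3200 reads per cell, with 1 point per line and bars for the exact binomial 95% interval. Ccnd1 ranges from 19.7% in XN4 to 95.6% in XN1, and KN1 is the lowest line for 7 of the 10 genes but not for Ccnd2.

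Of the Cip/Kip inhibitors, *Cdkn1a* was highest in XN1, at 519 RPM, and lay at 246 in KN1, 230 in CN4, and 172 in XN4. XN1 was 2.11-fold above the next line, and CN4 was 1.34-fold above XN4. In thinned cells it was captured in 59.7% of XN1 (58.0% to 61.4%), 29.99% of CN4 (28.4% to 31.6%), 22.9% of KN1 (21.5% to 24.4%), and 20.8% of XN4 (19.4% to 22.2%). The lines with the most *Ccnd1* transcripts, XN1 and CN4, were also the 2 lines with the widest capture of this inhibitor. By level this did not hold, as CN4 (230) lay below KN1 (246), and KN1 stood apart as lower in thinned capture for 41.6% of all genes.

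*Cdkn1b* was at 254 RPM in XN4, 183 in CN4, 145 in XN1, and 66.7 in KN1. XN4 and KN1, at the ends of this order, differed 3.81-fold. Its thinned capture ran in the same order, from 43.8% in XN4 through 37.9% in CN4 and 33.1% in XN1 to 6.98% in KN1. Low capture in KN1 was general, as KN1 stood apart as lower in thinned capture for 41.6% of 11577 genes, and for 6 of the 10 genes examined here. XN4 stood apart as lower for *Ccnd2* (5.56% of all genes) and XN1 as higher for *Cdkn2a* (2.74%), while CN4 stood apart for 0 of the 10 (2.01% of all genes higher and 0.639% lower).

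The INK4 genes *Cdkn2a* and *Cdkn2b* are neighbors on the minus strand of chromosome 4 (89274471 to 89294653 and 89306299 to 89311039). *Cdkn2a* was at 162 RPM in XN1, 77.7 in XN4, 61.2 in CN4, and 25.5 in KN1. XN1 was 2.08-fold above the next line. Thinned capture was 34.6% in XN1, 15.2% in CN4, 11.7% in XN4, and 2.53% in KN1, so that XN4 and CN4 changed places between the measures. The counts are per gene and do not separate the transcripts of p16 and p19Arf, and introns were counted in XN4, XN1, and CN4.

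*Cdkn2b* was captured in few cells of every line. Its level was 26.1 RPM in XN4 (24.6 to 27.7), 24.4 in XN1 (22.2 to 26.7), 16.4 in CN4, and 5.88 in KN1. The intervals of XN4 and XN1 overlapped. The thinned capture was 5.69% in XN1, 4.46% in CN4, 4.23% in XN4, and 0.913% in KN1. The high *Cdkn2a* level of XN1 was thus not matched by *Cdkn2b*. *Mtap*, the next gene of the locus on the list fixed for it, was at 226 RPM in CN4 and 109 to 125 in the other lines.

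*Cdkn2c*, which lies elsewhere on chromosome 4 (109660876 to 109667189), was at 100.1 RPM in CN4 (96.0 to 104), 93.9 in XN4 (91.0 to 96.9), 78.2 in XN1, and 16.3 in KN1. CN4 and XN4 overlapped within counting error, and KN1 lay 4.80-fold below XN1. It was captured in 21.1% of thinned CN4, 20.2% of XN4, 17.5% of XN1, and 2.03% of KN1 cells.

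At least 1 of the 5 inhibitors was captured in 85.5% of thinned XN1 cells, 70.6% of CN4, 69.1% of XN4, and 31.0% of KN1 cells. At least 3 of the 5 were found in 14.6% of XN1 (13.4% to 15.9%), 7.69% of CN4 (6.79% to 8.68%), 5.32% of XN4 (4.59% to 6.13%), and 0.501% of KN1 cells.

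*Trp53* was at 209 RPM in XN4, 132 in CN4, 118.5 in XN1, and 54.7 in KN1. *Mdm2* ran from 64.2 for CN4 through 99.6 for KN1 and 109.6 for XN1 to 170.1 for XN4. XN4 was highest for both, yet it was lowest for *Cdkn1a*. The lines with the highest and the lowest *Mdm2* level differed 2.65-fold, and none stood apart. Thinned capture of *Mdm2* was 26.0% in XN4 (24.5% to 27.5%), 25.8% in XN1 (24.3% to 27.4%), 16.5% in CN4, and 10.0% in KN1, and XN4 and XN1 overlapped. Cells with both *Cdkn1a* and *Mdm2* were 17.6% of XN1, 9.52% of XN4, 6.30% of CN4, and 2.94% of KN1 cells.

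The other genes of the p53 pathway were described from a list of 25 targets of p53, of which 21 could be set side by side. In XN1, 5 of the 21 stood apart as higher, against 2.22% of all genes. These were *Eda2r* and *Plk2*, *Ak1*, *Trp53inp1*, and *Gadd45a*. *Eda2r*, a member of the tumor necrosis factor receptor family, was at 228 RPM in XN1 and at 62.2 in XN4, 83.9 in KN1, and 71.7 in CN4. *Trp53inp1*, a cofactor of p53, was at 374 in XN1 and at 163, 55.9, and 121 in the lines XN4, KN1, and CN4. *Gadd45a*, a stress sensor, was at 208 in XN1 and at 73.9, 9.76, and 48.0 in XN4, KN1, and CN4. In the other lines, 3 of the 21 targets were low in KN1 (*Ccng1*, *Gadd45a*, and *Trp53inp1*), a share near the 10.9% of all genes, *Btg2* was high in CN4 (154 against 32.5 to 72.9; 1.14% of all genes were high there), and *Fas* was low in CN4 (1.79 against 6.57 to 14.0; 1.19% were low). The median log2 difference of the targets from the mean of the other lines was 0.54 in XN1, 0.26 in XN4, -0.35 in CN4, and -0.46 in KN1, beside -0.06, 0.04, 0.06, and -0.06 for all genes.

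Of 9 regulators of p53 that could be compared, 2 kinases of the DNA damage pathway, *Atr* and *Chek2*, were high in KN1, where 11.5% of all genes were high. Of 22 partners of the CDK, RB, and E2F pathway, 2 were high in CN4 (1.14% of all genes), namely *Cdk6* at 97.7 RPM against 16.0 to 28.1, and *Ccne2* at 43.1 against 10.8 to 14.2. In KN1, *Ambra1*, *Fbxw7*, and *E2f3* were high, and the further inhibitors *Cdkn1c* and *Cdkn2d* were low, while *E2f2* was low in XN4, as were 7.31% of all genes. For KN1 these 3 and 2 of the 22 partners were near the shares of all genes, 11.5% and 10.9%. *Ambra1* serves the ubiquitin ligase that degrades D cyclins, and it was at 283 RPM in KN1 and at 41.8 to 101.1 in the other lines. Of 8 regulators of the *Cdkn2a* locus, *Hmga2*, which represses it in young neural stem cells, was at 1011 in KN1, 407 in CN4, 220.2 in XN4, and 25.6 in XN1. By level, the order of the 4 lines for *Hmga2* was the reverse of their order for *Cdkn2a*, which is given as a description with 1 library per line. In thinned capture it was not, as *Hmga2* was captured in 55.4% of CN4, 52.4% of KN1, 13.2% of XN4, and 5.91% of XN1 cells. *Bmi1*, a Polycomb repressor of the locus, was at 110.5 in XN1, 98.9 in CN4, 59.7 in XN4, and 18.6 in KN1. *Ring1* was also high in KN1, so that 2 of the 8 regulators were high there and 1, *Bmi1*, was low, against 11.5% and 10.9% of all genes, and 1, *Hmga2*, was low in XN1, against 1.86%.

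To see how the genes followed the cell cycle, thinned cells with reads of at least 2 of the 3 genes *Hmgb2*, *Mki67*, and *Top2a* were called G2-M class cells. They were 55.1% of CN4, 26.3% of XN1, 25.2% of KN1, and 22.3% of XN4 cells. All 12 other genes of mitosis examined were captured more often in these cells in every line, with a median ratio of 22.4 in XN1, 20.9 in XN4, and 11.5 in CN4, but 2.96 in KN1, where the class was thus set apart less. Of 11 S-phase genes, 7 were also captured over 25% more often in these cells in every line, with a median ratio over the 11 of 4.70 in XN1, 4.22 in XN4, 1.77 in CN4, and 1.48 in KN1, so that the class included cells with S-phase transcripts. Of the 10 genes, 2 inhibitors, *Cdkn2c* and *Cdkn1b*, were captured over 25% more often in G2-M class cells than in the other cells of each of the 4 lines, as were 7.57% of the 9039 genes tested. None of the 10 (0) was captured over 20% less often in each line, against 0.929% of all genes. *Cdkn2b* did not reach the minimum share of 1% in KN1 and was not among the 9039. *Trp53* had ratios of 1.38 in XN4, 1.41 in KN1, 1.06 in XN1, and 1.05 in CN4, and the intervals of the classes lay apart only in XN4. Without thinning, its ratios were 1.27 to 1.77 and it passed in each line.

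*Cdkn2c* followed the class most closely. In CN4, it was captured in 31.1% of G2-M class cells (29.0% to 33.4%) and in 8.75% of the others (7.33% to 10.3%). The shares were 35.4% and 11.2% in XN1, 27.2% and 18.2% in XN4, and 3.85% and 1.42% in KN1. The ratios were 3.56 in CN4, 3.16 in XN1, 2.72 in KN1, and 1.498 in XN4. In all 4 lines the intervals of the classes did not overlap. *Cdkn2d*, the INK4 gene for p19Ink4d, had ratios of 5.20 in CN4, 3.37 in XN1, 2.82 in XN4, and 2.10 in KN1, where the intervals of the classes overlapped.

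*Cdkn1b* had ratios of 1.45 in CN4, 1.28 in XN1, 1.88 in KN1, and 1.27 in XN4. It was captured in 44.0% of G2-M class cells and 30.4% of other cells of CN4, and in 52.6% and 41.3% of those of XN4. The ratio of all genes had a median of 1.204 in KN1, 1.05 in XN4, 1.02 in XN1, and 0.995 in CN4, and G2-M class cells had more genes per cell (for KN1, a median of 903 against 730). Divided by this median, the ratio of *Cdkn1b* was 1.21 in XN4 and 1.249 in XN1 and no longer passed in every line, while *Cdkn2c* kept 1.43 to 3.58.

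*Ccnd2* and *Cdkn2b* went the other way in 3 lines. *Ccnd2* was captured in 65.7% of G2-M class cells and 91.7% of other cells of XN1, in 6.11% and 16.0% of those of XN4, and in 84.5% and 91.3% of those of CN4, but in 70.9% and 71.6% of those of KN1. *Cdkn2b* was captured in 2.55% and 6.81% in XN1, 2.12% and 4.83% in XN4, and 2.64% and 6.70% in CN4. In KN1 its shares were 0.933% and 0.906%. *Cdkn2a* was likewise less frequent in the class in XN1 (25.4% and 37.9%) and CN4 (13.04% and 17.8%), with ratios of 0.898 in XN4 and 1.21 in KN1. Without thinning, the XN4 ratios of *Ccnd2* and *Cdkn2b* moved from 0.383 to 0.798 and from 0.440 to 0.784, that of *Cdkn2a* from 0.898 to 1.33, and that of *Ccnd1* from 0.992 to 1.49. *Ccnd1* had ratios of 0.863 to 0.992 and *Ccnd3* of 0.964 to 1.197. *Ccnd1* was captured in 67.5% of G2-M class cells and 78.2% of other cells of CN4, and in 91.9% and 97.0% of those of XN1. In both lines the intervals of the classes did not overlap, while in XN4 and KN1 they did. The capture of *Ccnd1* in XN1 left little room for an increase.

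Cells outside the class with reads of at least 2 S-phase genes, 257 to 536 per line, were also looked at. *Ccnd1* was captured in 31.5% of these in XN4, against 18.4% of the remaining cells, and in 87.3% against 72.6% in CN4. *Cdkn1a* was captured in 45.2% against 65.0% in XN1, 27.2% against 34.8% in CN4, and 15.95% against 21.02% in XN4. In KN1 the *Cdkn1a* shares were 21.96% and 20.96%. *Ccnd1* was at 98.0% and 96.8% in XN1 and at 26.1% and 23.0% in KN1. These shares are given as values without an interval.

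**Figure D3:**
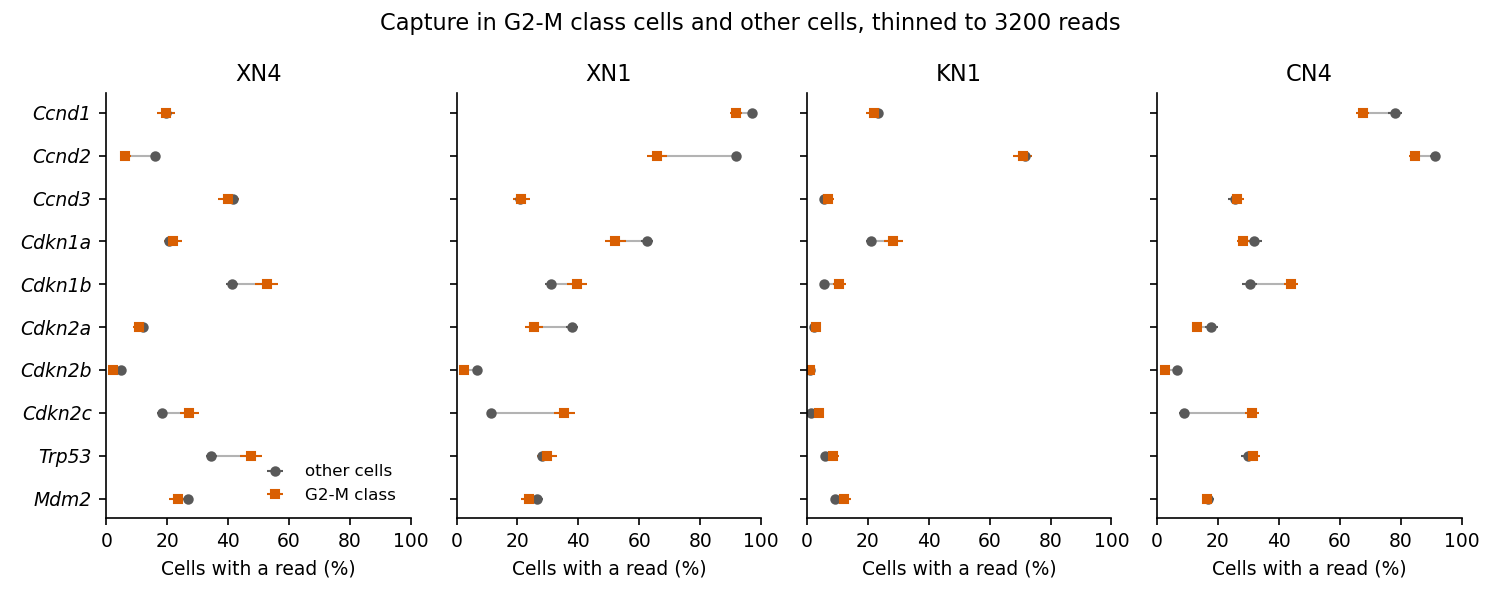
Share of thinned cells with at least 1 read of each gene (%), in G2-M class cells (squares) and other cells (circles) of the 4 lines, with bars for the exact binomial 95% interval. Cdkn2c and Cdkn1b lie further right in G2-M class cells of every line, and Ccnd2 further left in XN4, XN1, and CN4.

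Co-capture in single cells was scored as the number of cells with reads of both genes over the number expected if both were captured independently within 20 strata of like depth, using all reads where those tables exist and the normalized table of KN1. Of 45 pairs, 17 had a ratio above 1 in each line, 3 had a ratio below 1 in each line, and 25 were mixed. Of all genes set against one of the 10, 10.7% to 28.5% were above 1, 4.2% to 10.5% below 1, and 0% to 1.92% above 1.1 in each line. The 3 pairs below 1 became 10 with the library of KN1 left out, 7 with strata of genes detected, 5 without the deepest cells, and 1 with at least 2 reads. The 17 above 1 became 11 when only cells outside the G2-M class were used. The 3 pairs above 1.1 in each line were *Cdkn2a* with *Cdkn2b*, *Cdkn1a* with *Mdm2*, and *Cdkn1a* with *Cdkn2b*, the last of which did not pass with strata of genes detected. The ratio cannot exceed the inverse of a gene's share, which is 1.49 for *Cdkn1a* and 1.04 for *Ccnd1* in XN1, so ratios are compared between lines only with this limit in view.

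The neighbors *Cdkn2a* and *Cdkn2b* were captured together in 498 XN4 cells where 266 were expected, a ratio of 1.87 (1.71 to 2.05). The ratio was 1.49 in CN4 (1.38 to 1.60) and 1.24 in XN1 (1.15 to 1.33). In KN1 it was 2.42 from 5 cells (0.787 to 5.66), and its interval included 1. *Cdkn2b* and *Cdkn2c*, in contrast, were below 1, with ratios of 0.829 for CN4, 0.755 for XN1, and 0.724 for XN4, and 1 cell with both in KN1. *Cdkn2c* and *Cdkn1b*, the genes of the G2-M class, reached 1.15 for XN1, 1.11 for CN4, 1.08 for XN4, and 1.28 (0.732 to 2.08) for KN1. In cells outside the G2-M class, the log2 ratio of *Cdkn2b* and *Cdkn2c* turned to 0.10 in CN4, so that the pair was no longer below 1 in each line, and that of *Cdkn2c* and *Cdkn1b* turned to -0.21 in KN1. These cells came from the normalized tables and were 1417 in CN4, beside 18157 for the ratios above, and 2539 of 3975 in KN1. Both values are given without an interval. In KN1 the ratio of *Cdkn2c* and *Cdkn1b* above already rested on 16 cells with both.

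*Cdkn1a* and *Mdm2* had ratios of 1.302 in XN4 (1.24 to 1.36), 1.24 in KN1 (1.07 to 1.43), 1.118 in CN4 (1.08 to 1.16), and 1.11 in XN1 (1.07 to 1.14), all with intervals above 1. *Cdkn1a* and *Cdkn2b* had ratios of 1.74, 1.24, 1.19, and 1.14 in XN4, CN4, XN1, and KN1, where the interval of KN1 (0.666 to 1.83) included 1. *Trp53* itself was nearer 1 with both *Cdkn1a* (0.978 to 1.07) and *Mdm2* (0.987 to 1.13). Its interval with *Cdkn1a* in XN4 (1.02 to 1.11) lay above 1, and its other intervals with these genes included 1. In XN4, XN1, and CN4 the interval of *Cdkn1a* with *Mdm2* lay above those of *Trp53* with either, and in KN1 they overlapped.

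XN4 differed from the other lines in a further way. There, *Ccnd2* had ratios of 2.19 with *Cdkn2b*, 1.64 with *Cdkn2a*, 1.62 with *Cdkn1a*, and 1.59 with *Ccnd1*. In the other lines the same 4 pairs had ratios of 1.01 to 1.08. Because *Ccnd2* was captured in 18.5% of XN4 cells but in 72.4% to 92.7% of the cells of the other lines, the highest ratio possible was 5.41 in XN4 and 1.08 to 1.38 elsewhere. The odds ratio, which has no such limit, was 4.41 for *Ccnd2* with *Ccnd1* in XN4, 3.04 in XN1, 3.79 in CN4, and 1.38 in KN1. On that scale *Ccnd2* with *Cdkn1a* was at 4.501 in XN4, 1.57 in XN1, 1.51 in CN4, and 1.07 in KN1. *Cdkn1a* with *Trp53* was at 1.49 in XN4 and 0.877 to 1.14 in the other lines. *Cdkn1a* with *Mdm2* was at 3.02 in XN4 and 1.41 to 1.81 in the other lines.

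**Figure D4:**
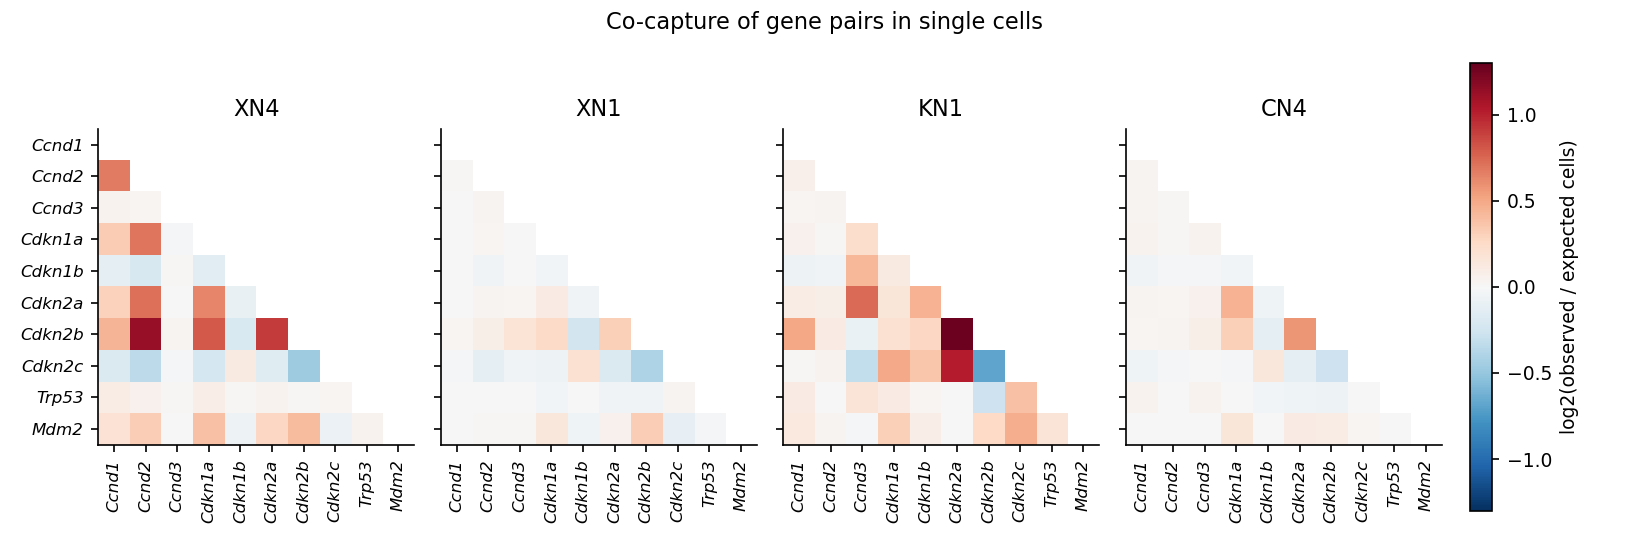
Log2 of observed over expected cells with reads of both genes, for the 45 pairs in each line, on a color scale from blue (fewer than expected) to red (more). The block of Ccnd1, Ccnd2, Cdkn1a, Cdkn2a, Cdkn2b, and Mdm2 is red in XN4, and the strong colors of Cdkn2a, Cdkn2b, and Cdkn2c in KN1 rest on few cells (5 for Cdkn2a with Cdkn2b).

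*Cdkn1a* was then set against all 8210 other genes captured in at least 2% of the cells of all 4 lines. No gene had a ratio above 1.2 in each line (0% of 8210), and 22 genes (0.268%) had one above 1.1. Of the 18 p53 targets among these genes, 8 were above 1.1 in each line: *Phlda3*, *Zmat3*, *Trp53inp1*, *Sesn2*, *Aen*, *Eda2r*, *Tnfrsf10b*, and *Psrc1*. The median ratio of the 18 targets was 1.40 in XN4, 1.254 in KN1, 1.23 in CN4, and 1.09 in XN1, beside 1.01, 1.03, 0.990, and 0.991 for all genes in that order. *Phlda3*, an inhibitor of Akt, had the highest value in its lowest line, with 1.49 in XN4, 1.47 in CN4, 1.39 in KN1, and 1.195 in XN1. *Dcxr*, *Psrc1*, *Dnm3*, and *Pidd1* came next, with lowest ratios of 1.16 to 1.17, all in XN1. Other targets were near or under 1, such as *Sesn1* (0.895 to 1.13) and *Rrm2b* (0.939 to 1.09). With the odds ratio, 13 of the 18 targets and 0.987% of all genes were above 1.2 in each line.

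*Mdm2* shared part of this pattern. Of the same 18 targets, 5 had a ratio above 1.1 with *Mdm2* in each line, as did 12 of 8210 genes (0.146%). The genes with the highest value in their lowest line were *Ano3*, *Eda2r*, *Polk*, *Phlda3*, and *Slc19a2*, at 1.14 to 1.15. For *Trp53*, 0% of the 8210 genes passed 1.1, and the 5 leading genes were *Cdt1*, *Ung*, *Orc1*, *E2f7*, and *Shmt1*, at 1.07 to 1.09, of which *Cdt1* and *Orc1* license replication origins. None of the 18 p53 targets passed with *Trp53*.

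**Figure D5:**
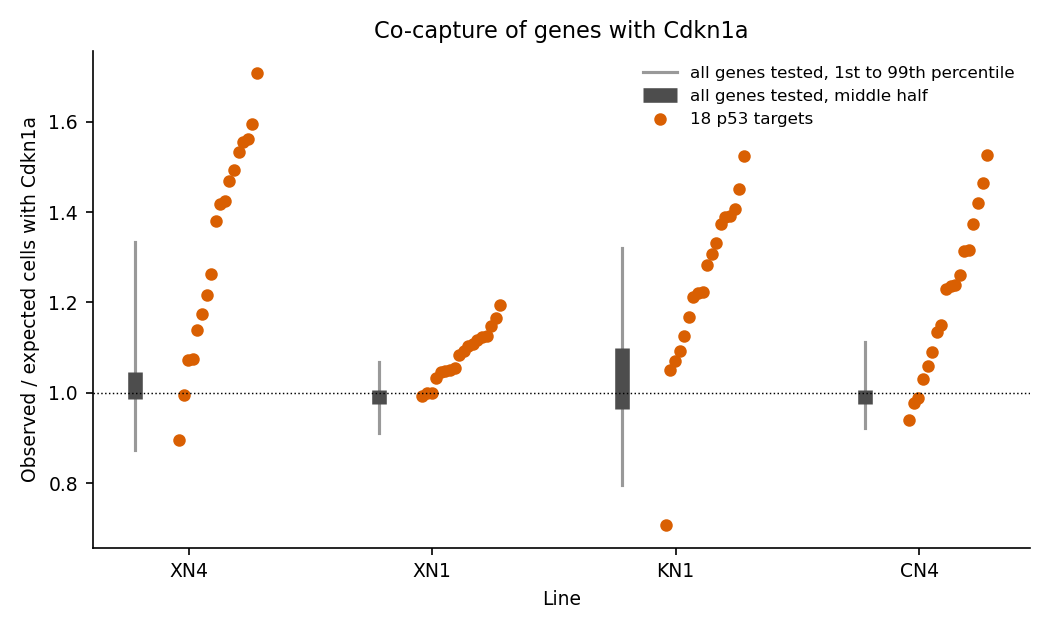
Observed over expected cells with both Cdkn1a and a second gene in each line, for the 18 p53 targets (orange points, ordered by value) and all 8210 genes tested (gray line, 1st to 99th percentile; dark bar, 25th to 75th percentile). Of the 18 targets, 14 lie above 1 in each line, against 10.8% of all genes, with medians of 1.09 in XN1 and 1.40 in XN4.

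For the other inhibitors the leading genes were in part others. With *Cdkn2c*, 158 genes (1.92%) had a ratio above 1.1 in each line, among them all 12 mitosis genes, and the leading genes were *Arhgef39*, *Pif1*, *Sapcd2*, *Aurkb*, and *Kif14*, at 1.29 to 1.34. *Aurkb* encodes a mitotic kinase, and its ratio with *Cdkn2c* was 1.99 in XN1. With *Cdkn1b*, 0% of the 8210 genes passed, and *Arhgef39* also led, at 1.09 in XN4, and *Cdkn2c* itself came second, at 1.08. With *Cdkn2b*, 87 genes (1.06%) passed, and *Slc7a11*, the cystine transporter, *Tnfrsf12a*, *Eno2*, *Egr3*, and *Slc19a2* led, at 1.27 to 1.43, with ratios of 1.98 and 2.14 for *Slc7a11* and *Tnfrsf12a* in XN4. Of the 18 p53 targets, 4 passed with *Cdkn2b* and 1 was above 1.2 in each line, as were 0.146% of all genes. The median ratio of the targets was 1.44 in XN4, 1.22 in KN1, 1.16 in XN1, and 1.13 in CN4, beside 1.02, 1.07, 0.980, and 0.995 for all genes. With *Cdkn2a*, 4 genes (0.0487%) passed, led by *Dcxr*, *Pik3ip1*, and *Btg2*, of which *Btg2* is 1 of the 18 p53 targets, and 9 of the 18 were above 1 in each line, as were 10.7% of the 8210 genes. *Dcxr* was thus second for *Cdkn1a* and first for *Cdkn2a*.

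For the D cyclins, no gene passed 1.1 in each line (0% of 8210 for each), and the values were held near 1 where a cyclin was captured in nearly every cell. *Ccnd1* was led by *Tarbp1*, *Nptx1*, *Fpgs*, *Ccne1*, and *Ung*, at 1.01 to 1.02. *Ccne1*, the cyclin of the G1 to S transition, also came among the leading genes for *Ccnd3*, at 1.05. *Ccnd2* was led by *Hbegf*, a ligand of the EGF receptor, at 1.03.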

How the data were processed

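Single cells of XN4, XN1, KN1, and CN4 were measured in 1 BD Rhapsody library per line. Read counts per gene and cell, deposited for XN4, XN1, and CN4, were made per the file headers with the BD Rhapsody WTA pipeline 1.12.1 on GRCm38 with GENCODE M19, refined cell calling, and introns included. Randomly selected cells of each line also have natural log values that the authors made with Seurat 4.3.0, without mitochondrial and ribosomal protein genes. The pipeline settings of KN1 are not given in the sources used here.

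Natural log values were turned back into reads, of which 100% were whole within 0.01, and in XN4, XN1, and CN4, where counts were at hand, 0 differed from the deposited counts. Listed genes left out 20.9% to 30.0% of the reads of the same cells. Capture meant at least 1 read. Levels were summed reads in RPM with exact Poisson intervals, and shares had Clopper-Pearson intervals. Cells were thinned to 3200 reads, which left 3129 to 3396 cells per line. Genes tested across lines were listed in all 4 tables with at least 5 RPM in 1 line. Doublets were not called. Cells with the most reads were left out instead as an alternative.

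Named genes were the 10 genes, those of the fixed lists, and for each of the 10 captured in at least 5% of cells in at least 3 lines the 5 genes with the highest lowest ratio over lines. The 10 genes and the lists were chosen with earlier results of these data known. The ratio of 1.1 for pairs, the odds ratio (Mantel-Haenszel), division by the median ratio, and leaving out XN4 or KN1 were chosen after seeing the data. The steps were tested on simulated data. Python 3, numpy, and scipy were used, and gene positions came from GENCODE M21 on GRCm38.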

Additional observations from a re-analysis of the deposited data

Results flagged for a closer look

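*Cdkn1a* was captured more often in G2-M class cells than in other cells of KN1 and less often in those of XN1. The shares in KN1 were 28.4% (25.4% to 31.5%) of 857 class cells and 21.1% (19.5% to 22.8%) of 2539 other cells, a ratio of 1.34. In XN1 they were 52.1% (48.7% to 55.6%) of 823 and 62.4% (60.4% to 64.4%) of 2306 cells, a ratio of 0.835. The intervals did not overlap within either line, and the difference between the lines was not tested, since each is 1 library. The median ratio of all genes was 1.204 in KN1 and 1.02 in XN1, and the 12 mitosis genes set the class apart less in KN1, with a median ratio of 2.96 there and 22.4 in XN1. Divided by the median of all genes, the *Cdkn1a* ratios were 1.115 and 0.816.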

How the results depend on the processing

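The combinations of gene and line that stood apart in level were 9, and 5 with the tables of all reads (where KN1 kept the table without mitochondrial genes, so that the other lines were divided by more reads). They were 2 with the mean of log values (1 of the 9 and *Ccnd1* as high in XN1), a measure that compresses the folds of genes captured in few cells. They were 2 at 3-fold, and 5 without KN1 (4 of the 9 and *Ccnd1* as low in XN4). Capture gave 8 combinations, and 3 without KN1. Of the genes higher in G2-M class cells, 1 of 2 was left with *Mki67* alone or after division by the median ratio (*Cdkn2c* both times), and 0 at a ratio of 1.5. Without thinning, *Trp53* passed beside these 2. Pairs above 1.1 were 3, and 6 with at least 2 reads and 12 with the odds ratio. The p53 targets above 1.2 with *Cdkn1a* were 0, and 1 with strata of genes detected, 8 at 1.1, and 13 with the odds ratio. Other alternatives kept the counts of this paragraph within 1.5 times. At least 134 of 526 single values under alternatives moved beyond the counting interval of the main value, among them 26 of the 40 level folds. Of the 526, 29 changed sign, 24 of them ratios of G2-M class to other cells (8 without thinning), where in 0 of the 24 the intervals of the classes lay apart. Among pairs, 5 did: *Cdkn1b* with *Cdkn2c* in KN1 outside the G2-M class (-0.21), with at least 2 reads, the log2 ratios of *Ccnd1* with *Cdkn1b* (0.035) and *Cdkn2b* with *Cdkn2c* (0.27) in KN1, and outside the G2-M class, those of *Ccnd1* with *Cdkn1b* in XN1 (0.0015) and *Cdkn2b* with *Cdkn2c* in CN4 (0.10). The cells outside the G2-M class were those of the normalized tables, so fewer cells were used there. The cause of the changes of sign was not tested. No paired analysis was possible because each line is 1 library. Few genes per cell limit KN1 most, at a median of 764 in thinned cells. The mean reads of a gene per capturing cell had a median over genes of 5.43 in KN1, and *Cdkn2b* was read there in 44 cells.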
